A study of Homo sapiens with 60 samples.

Results

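The mitochondrially encoded complex I subunits are the 7 MT-ND genes, MT-ND1, MT-ND2, MT-ND3, MT-ND4L, MT-ND4, MT-ND5 and MT-ND6, and they were taken by their symbols as 7 of the 58395 genes in the count table. Libraries came from HEK293A, an adherent subline of the human embryonic kidney line HEK293, with a TDP1 knockout in every group. Each of 3 knockout clones (C6, F7 and G6) was given 100 nM topotecan with 5 µM OL9-119, 5 µM OL9-119 dissolved in 0.1% DMSO, 100 nM topotecan with 0.1% DMSO, 0.1% DMSO, or no treatment, for 5 to 5.5 hours. The label names no DMSO for the combination. With 4 biological replicates in each of the 15 groups there were 60 poly(A)-selected libraries, 12 per treatment. TDP1 repairs stalled topoisomerase 1 complexes, topotecan traps topoisomerase 1 on DNA, and OL9-119 is a compound known here only by its code. A parental line with intact TDP1 was not analysed here, so the values describe the compounds in cells that all lack TDP1 by their label, and a clone stands for 1 edited line each.

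Complex I is the first enzyme of the respiratory chain; it takes electrons from NADH, passes them to ubiquinone and pumps protons across the inner mitochondrial membrane. The MT-ND proteins are all part of its membrane arm, whereas the arm that carries the redox centres is made from nuclear genes. Mitochondrial DNA is copied into long transcripts from both strands, which are cut at the tRNAs between the genes, and most of the resulting mRNAs receive a short poly(A) tail. MT-ND6 is the only mRNA of the family that is read from the other strand, called the minus strand below. Its mRNA is known to extend past the reading frame and to lack such a tail, and what this does to its counts in poly(A)-selected libraries was not tested.

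In order along the plus strand of hg38 (GENCODE 29 coordinates), MT-ND1 (ENSG00000198888) occupies chrM:3307-4262 and MT-ND2 (ENSG00000198763) chrM:4470-5511. After the cytochrome oxidase and ATP synthase genes follow MT-ND3 (ENSG00000198840) at chrM:10059-10404, MT-ND4L (ENSG00000212907) at chrM:10470-10766 and MT-ND4 (ENSG00000198886) at chrM:10760-12137. MT-ND5 (ENSG00000198786) lies at chrM:12337-14148, and MT-ND6 (ENSG00000198695) lies beside it on the minus strand at chrM:14149-14673. Each gene is a single exon. The transcripts are 956 nt long for MT-ND1, 1042 nt for MT-ND2, 346 nt for MT-ND3, 297 nt for MT-ND4L, 1378 nt for MT-ND4, 1812 nt for MT-ND5 and 525 nt for MT-ND6.

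The last 30 bases of each annotated transcript are shown because the members differ in how much of the stop codon the DNA encodes. An annotated end is not always the end of the mRNA: that of MT-ND4L lies inside the mRNA it shares with MT-ND4. Capitals mark the encoded stop codon or the part of it that the DNA holds, from the GENCODE 29 transcript sequences, 5′ to 3′ on the strand of each gene.
MT-ND1: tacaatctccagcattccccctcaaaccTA
MT-ND2: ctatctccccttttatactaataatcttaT
MT-ND3: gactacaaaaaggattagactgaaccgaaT
MT-ND4L: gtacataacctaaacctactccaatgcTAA
MT-ND4: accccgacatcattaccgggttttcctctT
MT-ND5: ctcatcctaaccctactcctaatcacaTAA
MT-ND6: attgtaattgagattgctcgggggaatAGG
MT-ND1, MT-ND2, MT-ND3 and MT-ND4 end in an incomplete stop, which the poly(A) tail completes, and MT-ND4L, MT-ND5 and MT-ND6 carry a whole one. The strand of MT-ND6 is visible in its bases: guanine makes up 35.6% and cytosine 7.05% of the MT-ND6 transcript, against 9.50 to 12.1% guanine and 29.5 to 35.98% cytosine in the other members.

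MT-ND4L and MT-ND4 share one mRNA and overlap by 7 bases, shown in capitals within the 33 bases at chrM:10747-10779.
MT-ND4L and MT-ND4 junction: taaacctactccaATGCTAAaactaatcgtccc
How reads were counted, and whether by strand, is not given. Reads from the shared bases, and reads of MT-ND6 and of any transcript antisense to it, therefore cannot be told apart in the counts.

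Library totals ran from 4623685 to 20932497 counts, and the members held 0.528 to 1.58% of them; the lowest count of any member in any library was 535. TDP1 itself, which checks the label only in part without a parental line, still had counts in every library (18.1 to 40.1 CPM). Of 10 markers of HEK293 cells 8 averaged at least 1 CPM, KRT8 at 698 CPM, and the leukocyte marker PTPRC averaged 0.0158 CPM. In 14 libraries (10 of C6 and 4 of G6, spread over the treatments) fewer than 20000 genes were detected after thinning to 4500000 counts. These low-detection libraries are named beside the results that move with them. In bulk RNA, fewer cells and less RNA per cell cannot be told apart, and all values are relative to the other transcripts of a library.

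Levels are CPM, a gene's counts scaled to a common library total after TMM scaling, and a difference between genes in level is given per kilobase of transcript. In DMSO, averaged over the 12 libraries, MT-ND4 reached 2556 CPM per kb, MT-ND2 2505 CPM per kb and MT-ND3 2205 CPM per kb. MT-ND1 had 1643 CPM per kb, MT-ND5 1368 CPM per kb, MT-ND4L 1207 CPM per kb and MT-ND6 1029 CPM per kb. MT-ND4L and MT-ND4 share an mRNA and yet differ on this scale. The order is therefore one of counts per length, not of mRNA abundance. The other mitochondrial mRNAs lay above all members, with MT-ATP8 lowest at 2680 CPM per kb and MT-CO1 highest at 6941 CPM per kb. After OL9-119 the order on the same scale was MT-ND2 (1987 CPM per kb), MT-ND4 (1811), MT-ND1 (1434), MT-ND3 (1040), MT-ND4L (811), MT-ND5 (337) and MT-ND6 (321). MT-ND3 thus stood above MT-ND1 in DMSO and below it after OL9-119, and MT-ND5 moved below MT-ND4L. The spread between libraries was wide: in DMSO the SD over 12 libraries was 757 CPM per kb for MT-ND3 and 245 CPM per kb for MT-ND6, and each pair of neighbours in the DMSO order differed by less than the larger of their SDs.

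**Figure D1:**
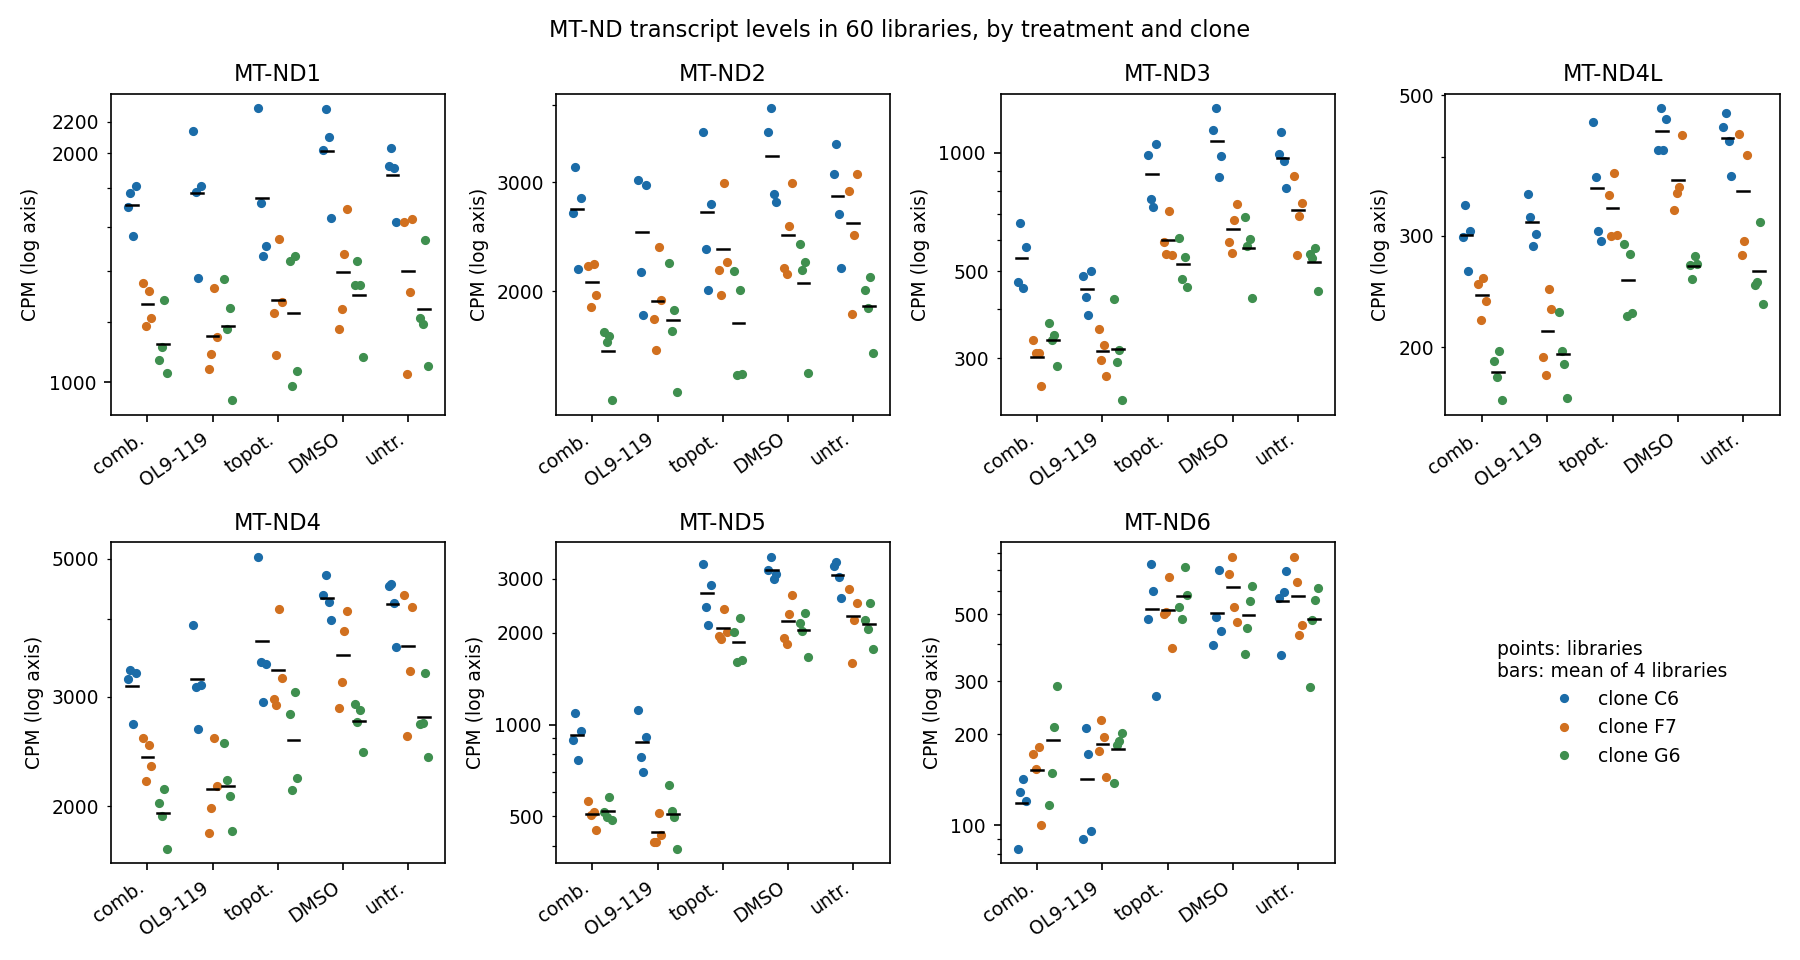
Level of each MT-ND transcript in CPM on a log axis (y) by treatment (x: combination, OL9-119, topotecan, DMSO, untreated), with 1 point per library coloured by clone and a bar at the mean of 4 libraries. The OL9-119 and combination libraries lie below all others for MT-ND5, with a highest value of 1113 CPM against a lowest of 1593 CPM, whereas the MT-ND1 ranges overlap.

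OL9-119 lowered 6 of the 7 members relative to DMSO. MT-ND5 kept 24.01%, MT-ND6 31.1% and MT-ND3 48.3% of their DMSO levels, whereas MT-ND4L, MT-ND4 and MT-ND2 kept between 67.0 and 80.1%. MT-ND1, the member at the junction of the membrane arm with the ubiquinone site, did not pass the test. In the same comparison 5% of all 18985 tested genes were lower and 9.47% changed in either direction (edgeR quasi-likelihood test, Benjamini-Hochberg adjusted p under 0.05). The members were chosen with earlier results of these data known, and they are cut from shared long transcripts. Their 6 of 7 is therefore a description, not a set of independent genes to test against that share. The median log2 difference was -0.58 over the members and 0.01 over all tested genes.

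MT-ND2, MT-ND4 and MT-ND5 are the proton-pumping subunits of the membrane arm, related to bacterial antiporters, with MT-ND5 at its far end. For MT-ND5 the 4 OL9-119 libraries of clone C6 had 1113, 784, 699 and 907 CPM, against 3219, 3552, 2998 and 3109 CPM in DMSO. In F7 the OL9-119 libraries had 413, 412, 512 and 436 CPM, against 1919, 1836, 2312 and 2649 CPM in DMSO. In G6 they had 632, 519, 499 and 392 CPM after OL9-119, against 2149, 2022, 2318 and 1671 CPM in DMSO. No OL9-119 library reached the lowest DMSO library of any clone. The log2 difference of MT-ND5 was -2.06 ± 0.09 (SE; edgeR adjusted p = 9.31e-27), and it was negative in 12 of 12 pairs of libraries with the same clone and replicate number, used here only to count.

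MT-ND4 ranged over the 12 libraries from 1808 to 3908 CPM after OL9-119 (median 2364), against 2448 to 4701 CPM in DMSO (median 3503). The pooled ranges overlapped. Its log2 difference was -0.50 ± 0.08 (edgeR adjusted p = 7.65e-06), negative in 12 of 12 pairs. MT-ND2 ranged from 1372 to 3029 CPM after OL9-119 (median 1898), against 1475 to 3953 CPM in DMSO (median 2466). The log2 difference of MT-ND2, -0.32 ± 0.10, was near the threshold (edgeR adjusted p = 0.0296), and 11 of 12 pairs were negative. Without replicate 2 or without replicate 3 of every group MT-ND2 no longer passed (adjusted p = 0.257 and 0.0847 with edgeR).

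The other members sit at the inner end of the membrane arm, where it meets the redox arm. MT-ND3, a small subunit with a loop close to the ubiquinone site, had 487, 430, 386 and 499 CPM after OL9-119 in C6, against 1147, 1302, 868 and 981 CPM in DMSO. In F7 it had 357, 297, 325 and 270.0 CPM after OL9-119, against 592, 557, 674 and 742 CPM in DMSO. In G6 it had 425, 294, 315 and 234 CPM after OL9-119, against 687, 579, 602 and 427 CPM in DMSO. Within each clone the groups did not overlap, although in G6 the highest OL9-119 library (425 CPM) came just below the lowest DMSO library (427 CPM). The log2 difference of MT-ND3 was -1.05 ± 0.09 (edgeR adjusted p = 2.69e-14), negative in 12 of 12 pairs.

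MT-ND6, the minus-strand member, lines the membrane arm beside MT-ND3 and MT-ND4L. It had 90.1, 210.0, 172 and 95.5 CPM after OL9-119 in C6, against 396, 491, 699 and 442 CPM in DMSO. In F7 it had 176, 224, 196 and 145 CPM after OL9-119, against 682, 775, 530 and 473 CPM in DMSO. In G6 it had 138, 184, 190.3 and 202 CPM after OL9-119, against 370.1, 449, 554.6 and 621 CPM in DMSO. The groups did not overlap in any clone, but in C6 and F7 the libraries of a group were spread more widely around their mean than for MT-ND5. The log2 difference of MT-ND6 was -1.68 ± 0.16 (edgeR adjusted p = 1.31e-12), negative in 12 of 12 pairs.

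MT-ND4L, the smallest member, ranged from 166 to 349 CPM after OL9-119 (median 228), against 256 to 477 CPM in DMSO (median 354). Its log2 difference was -0.58 ± 0.07 (edgeR adjusted p = 9.36e-09), and 12 of 12 pairs were negative. This lay close to the value of MT-ND4, with which it shares its mRNA, and the log2 ratio of MT-ND4L to MT-ND4 counts was -3.38 ± 0.11 after OL9-119 and -3.30 ± 0.12 in DMSO (SD, n = 12 each; not tested). MT-ND1 ranged from 947 to 2143 CPM after OL9-119 (median 1291), against 1079 to 2287 CPM in DMSO (median 1459). The log2 difference of MT-ND1 was -0.20 ± 0.08 (edgeR adjusted p = 0.134), with 9 of 12 pairs negative. Without a filter on low counts MT-ND1 passed (log2 -0.19, edgeR adjusted p = 0.00177).

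Without a fit, by CPM alone, the highest OL9-119 library lay below the lowest DMSO library in each of the 3 clones for MT-ND3, MT-ND4L, MT-ND5 and MT-ND6, which 0.458% of all tested genes did. Against all 36 libraries given no OL9-119, 24 of the 24 libraries given it (alone or with topotecan) were lower for MT-ND5. For MT-ND6 the number was 23 of 24, the exception being a G6 combination library with 289 CPM. It lay above a C6 topotecan library with 267 CPM and a G6 untreated library with 287 CPM, both low-detection libraries. The number was 17 for MT-ND3, 10 for MT-ND4L, 7 for MT-ND4, 2 for MT-ND2 and 1 for MT-ND1.

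For topotecan alone 0 of the 7 members passed by edgeR or by DESeq2, while 15.3% of all tested genes changed. Under other settings up to 3 members passed, the 3 in a model with replicate numbers as a term. In the main model the members' log2 differences, topotecan minus DMSO, ran from -0.20 ± 0.10 for MT-ND2 to -0.00 ± 0.15 for MT-ND6. MT-ND5 had 1601, 2070 and 3363 CPM as lowest, median and highest of 12 topotecan libraries, against 1671, 2315 and 3552 CPM in DMSO. For MT-ND6 the topotecan libraries had 267, 519 and 733 CPM, against 370.1, 510.3 and 775 CPM in DMSO. The ranges overlapped, and no member had topotecan below DMSO without overlap in each of the 3 clones, as 2.2% of tested genes had. At an unadjusted p under 0.05, edgeR gave 2 members, MT-ND3 and MT-ND4L, with log2 -0.17 and -0.18 (edgeR adjusted p = 0.194 and 0.0833). Without replicate 1, MT-ND4L passed (log2 -0.27, edgeR adjusted p = 0.0114), and without a filter on low counts MT-ND2 passed (log2 -0.17, edgeR adjusted p = 0.00209). A p that misses the threshold does not show that these members were unaffected.

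DMSO itself changed none of the members relative to no treatment, by edgeR or DESeq2 (0 at an unadjusted p under 0.05 by edgeR), where 0.0158% of all genes changed. The log2 differences ran from -0.02 for MT-ND5 to 0.09 for MT-ND2, each with an SE between 0.07 and 0.15.

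The combination gave the same list of members as OL9-119 against DMSO, 6 of 7 lower, against a background of 11.7% of tested genes lower. These 2 comparisons share the DMSO libraries, so their values are set side by side. MT-ND5 kept 25.8% of its DMSO level after the combination, and 24.01% after OL9-119. MT-ND6 kept 28.1% after the combination and 31.1% after OL9-119, and MT-ND3 kept 51.6% after the combination and 48.3% after OL9-119. The MT-ND2 call of the combination (log2 -0.30, edgeR adjusted p = 0.0230) was lost without replicate 1, 2 or 3, with edgeR adjusted p between 0.0687 and 0.0884. Between the combination and OL9-119 directly, 0 of 7 members differed by edgeR or DESeq2 (0 also at an unadjusted p under 0.05), while 12.7% of all genes did. The largest log2 difference in size was -0.15 ± 0.15 for MT-ND6, followed by 0.10 ± 0.08 for MT-ND5.

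Added to topotecan, OL9-119 lowered 5 members in the combination relative to topotecan alone, where 3.45% of tested genes were lower. MT-ND5 ranged from 452 to 1089 CPM in the combination (median 540.0), against 1601 to 3363 CPM in topotecan (median 2070). Its log2 difference was -1.80 ± 0.09 (edgeR adjusted p = 6.37e-24). MT-ND6 ranged from 83.6 to 289 CPM in the combination (median 146), against 267 to 733 CPM in topotecan (median 519), a log2 difference of -1.83 ± 0.16 (edgeR adjusted p = 1.79e-13). MT-ND3 (log2 -0.78 ± 0.09), MT-ND4L (-0.39 ± 0.07) and MT-ND4 (-0.36 ± 0.08) were lower too. MT-ND2 (-0.10 ± 0.10) and MT-ND1 (-0.06 ± 0.08) did not pass. Within each of the 3 clones the combination lay below topotecan with no overlap for MT-ND3, MT-ND5 and MT-ND6, as it did for 0.406% of tested genes.

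A test of whether OL9-119 acted differently with topotecan than without it (the interaction term) passed for 0 of 7 members by edgeR and by DESeq2, and for 0.0316% of all genes. Its log2 values were 0.27 ± 0.12 for MT-ND3 and 0.25 ± 0.12 for MT-ND5, the 2 members with an unadjusted p under 0.05 (edgeR adjusted p = 0.737 for each). For MT-ND6 the value was -0.14 ± 0.21.

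The change after OL9-119 followed no even gradient along the plus strand. From MT-ND1 to MT-ND2 and MT-CO1 the log2 differences were -0.20, -0.32 and -0.37, and from MT-CO2 to MT-CO3 they lay between -0.39 and -0.61. MT-ND3 then stood out from its neighbours, at -1.05 against -0.51 for MT-CO3 on one side and -0.58 for MT-ND4L on the other. MT-ND5 stood out further, at -2.06 between MT-ND4 at -0.50 and MT-CYB at -0.47, the last mRNA of the strand. MT-CYB encodes cytochrome b of complex III, and the log2 ratio of MT-CYB to MT-ND5 counts was 2.06 ± 0.23 after OL9-119 and 0.47 ± 0.12 in DMSO (SD, n = 12 each; not tested). All 6 other mitochondrial mRNAs were lower after OL9-119 by edgeR, and 5 of 6 passed by DESeq2, where 5% of tested genes were lower by edgeR. Their log2 differences lay between -0.61 and -0.37. By clone 4 were lower in C6, 5 in F7 and 1 in G6, against 1.93%, 0.411% and 0.953% of tested genes. In G6 their log2 differences ran from -0.45 to 0.01.

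**Figure D2:**
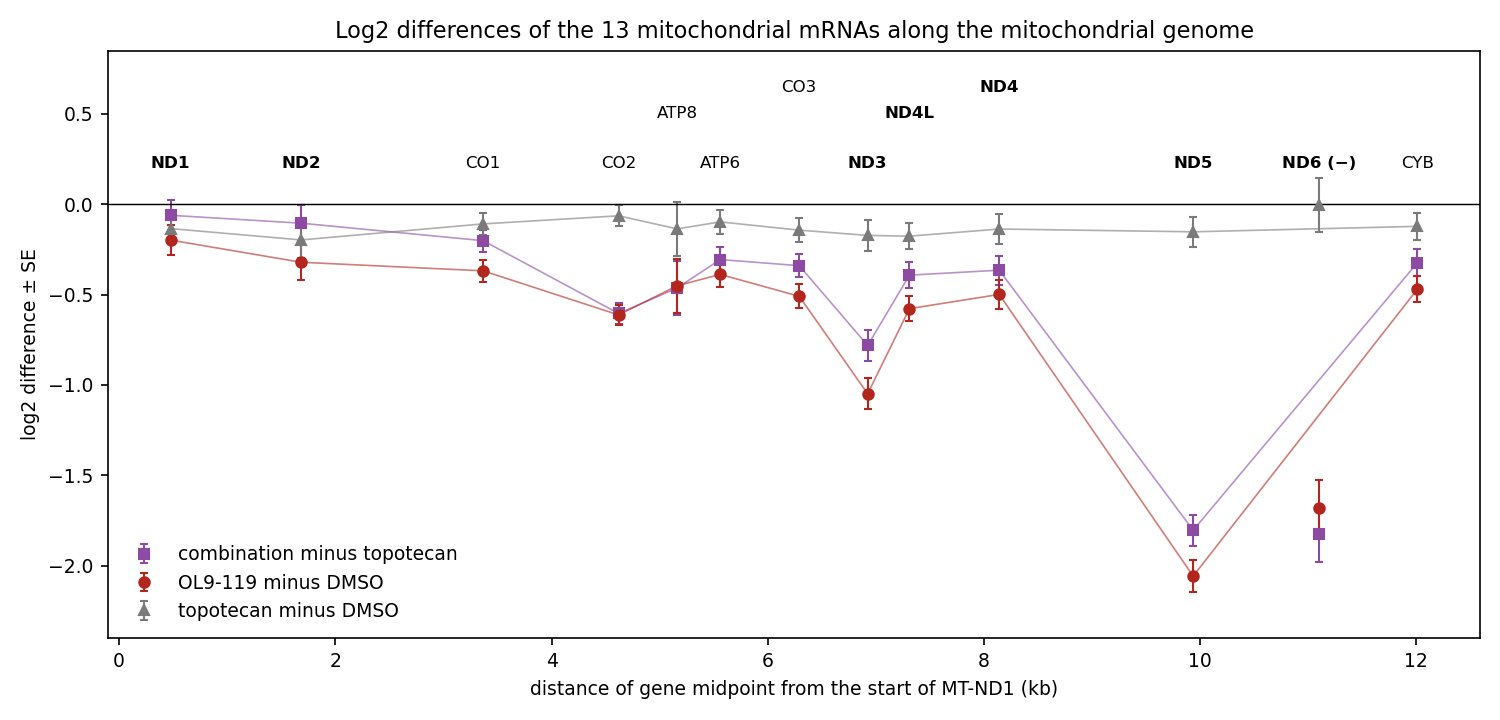
Log2 difference ± SE (y) of the 13 mitochondrial mRNAs against the distance of the gene's midpoint from the start of MT-ND1 in kb (x), for combination minus topotecan, OL9-119 minus DMSO and topotecan minus DMSO; lines join the plus-strand genes, MT-ND genes are in bold and (−) marks the minus strand. MT-ND3 and MT-ND5 lie below their plus-strand neighbours in the comparisons with OL9-119, MT-ND5 at -2.06 for OL9-119 minus DMSO.

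Ratios within a library do not depend on library scaling, and MT-ND5 against MT-ND1 was compared this way. These members had the largest and the smallest change after OL9-119 in the same libraries. The test of their ratio is therefore no separate evidence. The log2 ratio of MT-ND5 to MT-ND1 counts was -1.21 ± 0.17 after OL9-119 and 0.66 ± 0.12 in DMSO (SD, n = 12 each). The highest OL9-119 library, at -0.94, lay below the lowest DMSO library, at 0.49. The difference of -1.86 had p = 5.83e-06 in a 2-sided exact permutation test within clones (1.46e-05 adjusted over 15 tests), the smallest p these permutations can give. The ratio was -1.11 ± 0.20 in the combination and 0.64 ± 0.13 in topotecan, a difference of -1.75 with the same exact permutation p. Topotecan and DMSO differed by -0.01 (exact permutation p = 0.789), and DMSO and untreated by -0.07 (exact permutation p = 0.0966, adjusted 0.181).

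A straight line through the 6 plus-strand members gives a slope along the strand, in log2 counts per kb relative to each gene's mean over all libraries. The slope was -0.0841 ± 0.0164 after OL9-119 and 0.0508 ± 0.0127 in DMSO (SD, n = 12 each), and it differed by -0.135 per kb (exact permutation p = 5.83e-06). MT-ND4L and MT-ND4 lie between MT-ND3 and MT-ND5 and differed less than either, so the slope is a summary and no measure of an even gradient. Across the 6 members Pearson's r between position and log2 difference was -0.74 (Spearman -0.77), and across the 12 plus-strand mRNAs it was -0.52 (Spearman -0.66). These describe genes of the same libraries, which are not independent.

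**Figure D3:**
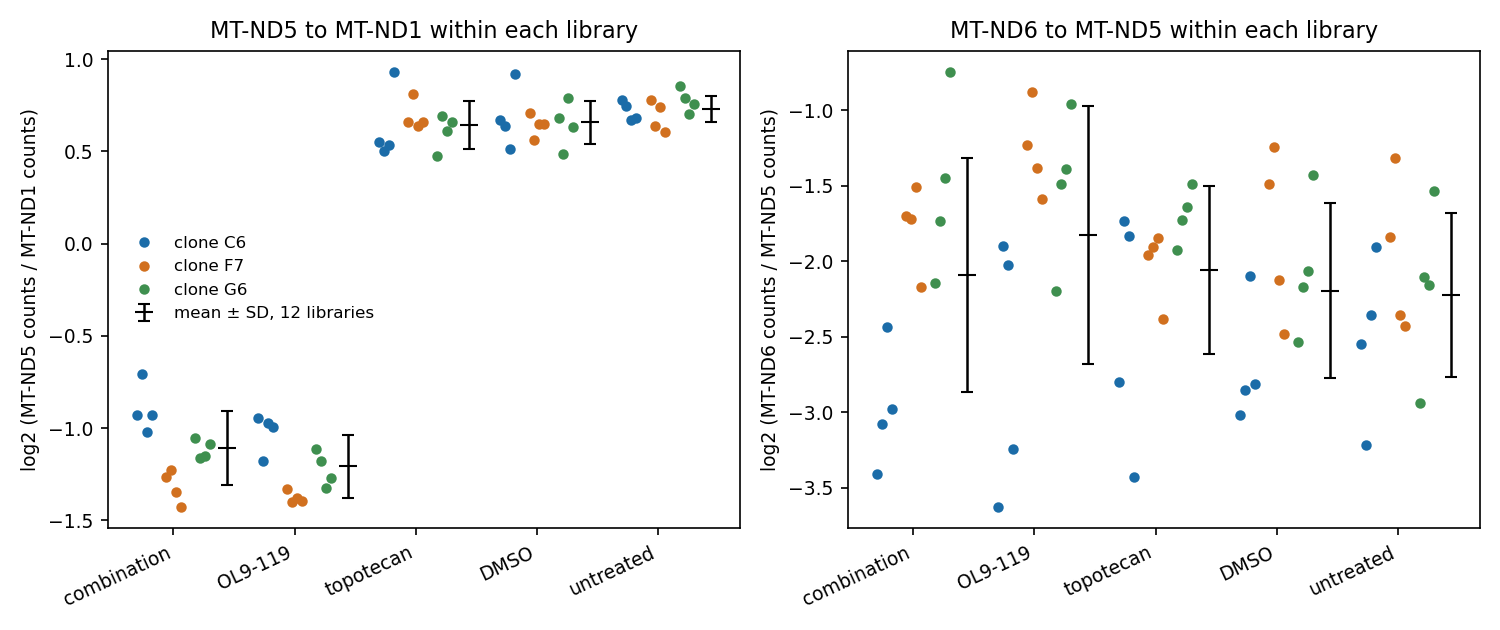
Log2 ratio of counts within each library (y) for MT-ND5 to MT-ND1 on the left and MT-ND6 to MT-ND5 on the right, by treatment (x), with 1 point per library coloured by clone and mean ± SD of 12 libraries in black. The left ratio is below -0.70 in every library given OL9-119 and above 0.47 in all others, while the right ratio overlaps between treatments.

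MT-ND6 and MT-ND5 are neighbours read from opposite strands, and their ratio overlapped between treatments. The log2 ratio of MT-ND6 to MT-ND5 was -1.83 ± 0.85 after OL9-119 and -2.19 ± 0.58 in DMSO (SD, n = 12 each), a difference of 0.37 (exact permutation p = 0.1102, adjusted 0.184; higher in 10 of 12 pairs). By clone the difference was -0.00 in C6, 0.57 in F7 and 0.54 in G6 (exact permutation p = 1, 0.171 and 0.229, with 0.0286 the smallest possible). Without the low-detection libraries, 10 of 14 of them from C6, the pooled difference was 0.56 (exact permutation p = 0.00667, unadjusted). In the combination the ratio was -2.09 ± 0.78 and in topotecan -2.06 ± 0.56, a difference of -0.03 (exact permutation p = 0.864).

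Detection and MT-ND6 moved together, and the part of detection in the treatment differences was not tested. Low-detection libraries numbered 4 in the combination, 3 after OL9-119, 2 in topotecan, 3 in DMSO and 2 untreated. Of 9 groups that held low-detection libraries and others, MT-ND6 was lower in the low-detection libraries in 9, at a median of 0.593 times the others. MT-ND2 and MT-ND3 were higher there in 9 of 9 groups, at medians of 1.33 and 1.25 times. MT-ND6 made up 2.05% of the members' counts in the 14 low-detection libraries and 4.52% in the other 46. Without the 14 libraries the OL9-119 differences were -2.14 ± 0.09 for MT-ND5, -1.60 ± 0.13 for MT-ND6 and -1.04 ± 0.08 for MT-ND3 on the log2 scale, and the same 6 members passed by edgeR.

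The members also differed in how they varied between libraries of the same group. As deviations from the 15 group means of log2 CPM over 60 libraries, Pearson's r ran from 0.60 to 0.94 (median 0.86) over the 15 pairs of plus-strand members. Between MT-ND6 and each of the 6 others it ran from -0.42 to -0.02. With only clone means removed, so that treatments count, r between MT-ND6 and MT-ND5 was 0.86, and between MT-ND6 and MT-ND2 0.20. Within groups the plus-strand members varied together, in libraries that share their scaling. MT-ND6 had a negative r with each of them, from -0.42 with MT-ND2 to -0.02 with MT-ND4L. The low-detection libraries, with MT-ND6 lower and MT-ND2 and MT-ND3 higher in 9 of 9 groups, are among these 60. Their part in these correlations was not tested.

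Library names begin with L01, L02 or L03, a prefix tied to clone and replicate number and balanced over treatments. What it stands for is not given. Within the 3 prefixes the OL9-119 minus DMSO mean of log2 differences over 4 pairs was -1.87, -2.16 and -2.16 for MT-ND5, -1.70, -1.65 and -1.74 for MT-ND6 and -0.91, -1.15 and -1.09 for MT-ND3.

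Each clone on its own showed the same order of members by size of change, from MT-ND5 over MT-ND6, MT-ND3, MT-ND4L, MT-ND4 and MT-ND2 to MT-ND1. In C6, 4 members were lower after OL9-119 (MT-ND3, MT-ND4L, MT-ND5 and MT-ND6) against 1.93% of tested genes. In F7, 5 members were lower, MT-ND4 in addition, against 0.411%. In G6 the 4 members of C6 were lower against 0.953%. For MT-ND5 the log2 difference was -1.88 ± 0.15 in C6 and -2.30 ± 0.15 in F7, and in G6 MT-ND5 kept 25.03% of its DMSO level. MT-ND3 kept 41.96% of its DMSO level in C6, 48.7% in F7 and 55.3% in G6. MT-ND6 kept 28.02% in C6, 30.1% in F7 and 35.8% in G6. A test of whether the clones differed in the OL9-119 difference passed for 0 of 7 members by edgeR and by DESeq2 (0 at an unadjusted p under 0.05) and for 0.0263% of all genes. The like test for topotecan also passed for 0 of 7 by each tool, against 0.137% of all genes. MT-ND4L in C6 and G6 and MT-ND4 in F7 lost their calls when a replicate was left out, and MT-ND4L in C6 also without the low-detection libraries.

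**Figure D4:**
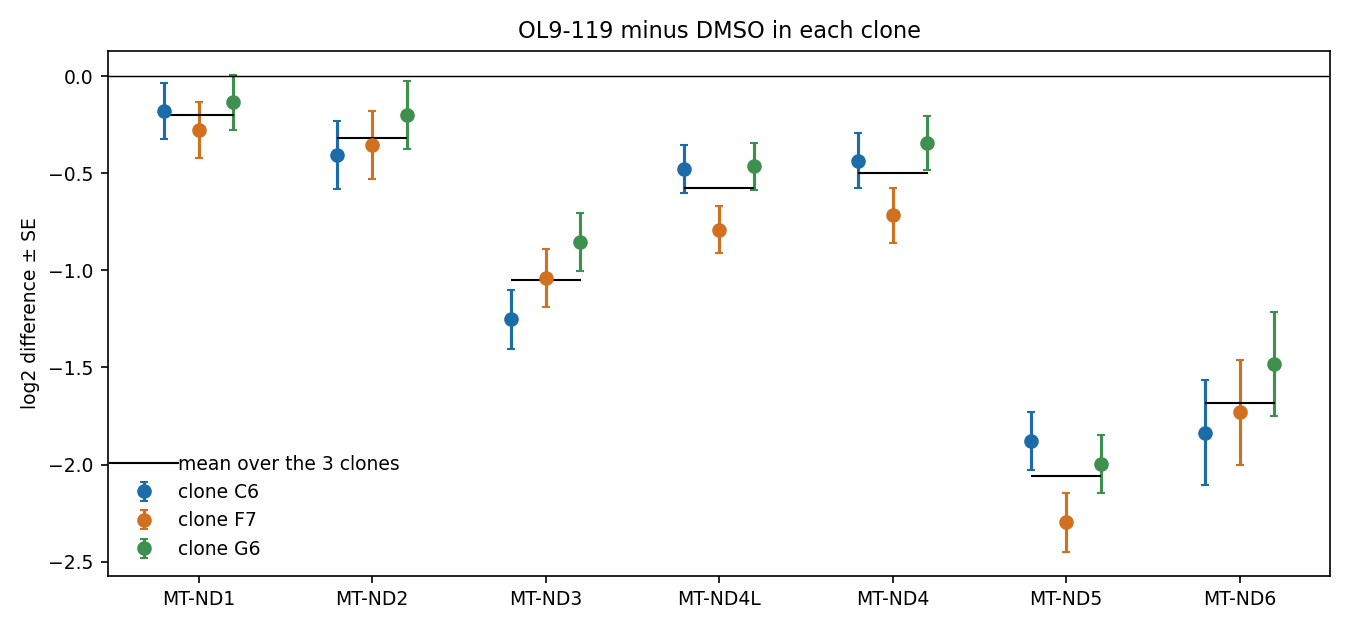
Log2 difference ± SE of each MT-ND gene (y) between OL9-119 and DMSO in clones C6, F7 and G6 (x: genes in genome order), with a bar at the mean over the clones. MT-ND5 and MT-ND6 lie at or below -1.48 in all 3 clones, and MT-ND1 lies between -0.28 and -0.14.

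The clones differed in the levels of the plus-strand members before any compound. In DMSO, C6 had 6 members higher than G6, all but MT-ND6, where 11.6% of tested genes were higher. MT-ND3 averaged 1074 ± 190 CPM in clone C6 (SD, n = 4 here and below). Its mean was 641 ± 82.9 CPM in F7 but 574 ± 108 CPM in G6. Clone C6 had 3220 ± 239 CPM of MT-ND5, F7 had 2179 ± 376 CPM and G6 had 2040 ± 274 CPM. Clone C6 had 507 ± 134 CPM of MT-ND6, F7 had 615 ± 138 CPM and G6 had 499 ± 111 CPM, and these ranges overlapped. C6 minus G6 was 0.90 ± 0.15 on the log2 scale for MT-ND3 (edgeR adjusted p = 3.99e-06) and 0.02 ± 0.26 for MT-ND6 (edgeR adjusted p = 0.962). Against F7, C6 had MT-ND1, MT-ND2, MT-ND3 and MT-ND5 higher, where 20.4% of tested genes were higher, and F7 had MT-ND4L higher than G6 (log2 0.45 ± 0.12, edgeR adjusted p = 0.00626; 6.89% of tested genes). The MT-ND2 call of C6 against F7 was lost without the low-detection libraries (log2 0.20, edgeR adjusted p = 0.371), under DESeq2, under other scalings and without replicate 1 or 2, and the MT-ND1 call without replicate 2 (edgeR adjusted p = 0.0668). Clone C6 held 2 of the low-detection libraries in DMSO and F7 none.

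Ordered by mean over the 15 groups, MT-ND5 fell into 3 blocks. The 9 groups without OL9-119 came first, from 3220 CPM in C6 with DMSO to 1868 ± 306 CPM in G6 with topotecan, each overlapping its neighbour in the order. The C6 combination (925 ± 134 CPM) and C6 OL9-119 (876 ± 180 CPM) followed without overlap to either side, and the 4 F7 and G6 groups with OL9-119 came last, between 519 and 443 CPM. MT-ND6 had its 6 groups with OL9-119 at the end, from 192 ± 76 CPM in the G6 combination to 119 ± 25 CPM in the C6 combination, and every group overlapped the next. In the order of MT-ND3 the C6 combination (540.0 CPM) stood between groups of G6 without OL9-119. For MT-ND1, MT-ND2, MT-ND4L and MT-ND4 all 14 steps between neighbouring groups overlapped, and for MT-ND1 the 5 highest groups were the 5 of C6.

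The nuclear genes of complex I were read from lists of 7 core subunits, 30 accessory subunits and 19 assembly factors. After OL9-119, 5% of all tested genes were lower and 4.47% higher, and a count near these shares is no result about a list. No core subunit passed by edgeR or DESeq2 (1 of 7 at an unadjusted p under 0.05), and their median log2 difference was 0.03. Of the accessory subunits 8 were lower and 1 higher, with a median of -0.19. NDUFB3 (log2 -0.48 ± 0.08), NDUFS5 (-0.40 ± 0.06) and NDUFB4 (-0.27 ± 0.05) were lower, and NDUFV3, an accessory subunit of the NADH-binding module, was higher (0.22 ± 0.05). NDUFB3 averaged 21.0 CPM after OL9-119 and 29.4 CPM in DMSO. Of the assembly factors 1, COA1, was lower (-0.19 ± 0.05). The lowest value of the 56 nuclear genes was -0.48. MT-ND5 (-2.06), MT-ND6 (-1.68) and MT-ND3 (-1.05) lay far below it, MT-ND4L (-0.58) and MT-ND4 (-0.50) only just. MT-ND2 (-0.32) and MT-ND1 (-0.20) lay within the nuclear range.

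For topotecan 4 of the 56 nuclear genes passed, 3 higher and 1 lower, a smaller share than the 5.99% higher and 9.35% lower of all tested genes together. No core subunit was among them by either tool (0 of 7 at an unadjusted p under 0.05). They were NDUFV3 (0.22 ± 0.05) and the assembly factors TMEM70 (0.22 ± 0.07) and TMEM186 (0.25 ± 0.08), all higher, and NUBPL, an iron-sulphur cluster factor of complex I, which was lower (-0.44 ± 0.08). After the combination 11.7% of all tested genes were lower and 9.52% higher. Of the 30 accessory subunits 11 were lower and 1 higher. The 3 lower and 1 higher of 19 assembly factors, and 0 of 7 core subunits by either tool (0 at an unadjusted p under 0.05), lay near those shares. NUBPL was lower by -0.53 ± 0.08 in the combination relative to DMSO.

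**Figure D5:**
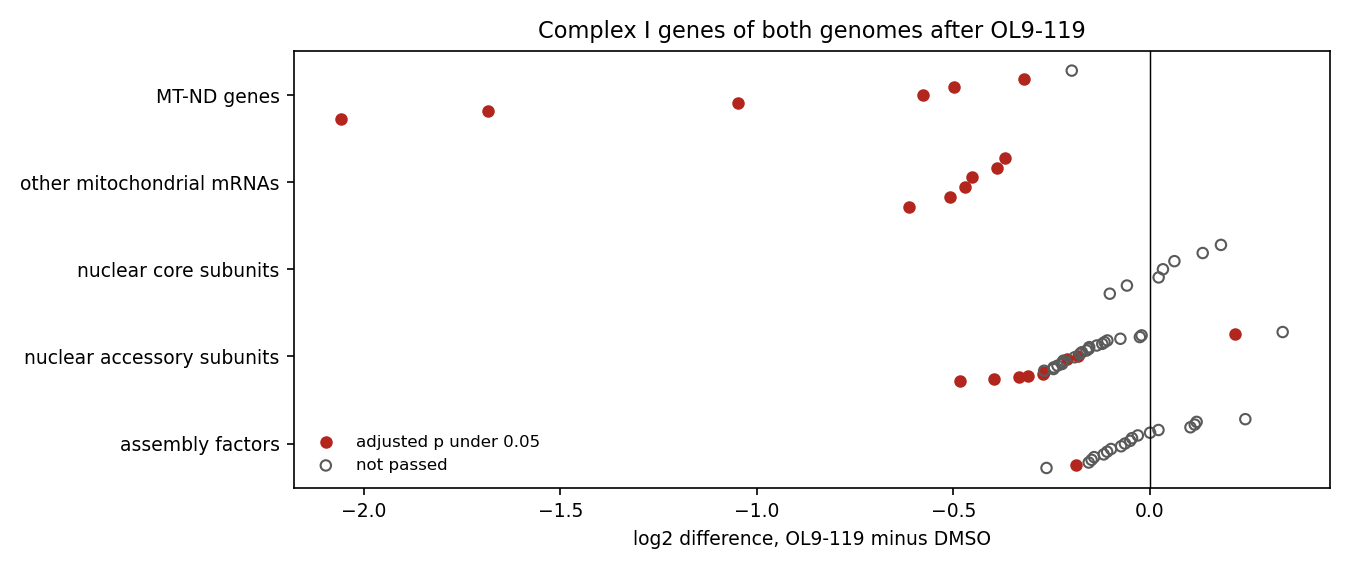
Log2 difference between OL9-119 and DMSO (x) of each gene in 5 lists (y), filled where the edgeR adjusted p was under 0.05. The MT-ND genes lie between -2.06 and -0.20, and the nuclear subunits and assembly factors between -0.48 and 0.34.

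MT-TE, the tRNA for glutamate that borders MT-ND6 on the same strand, had 0.0138 CPM after OL9-119 and 0.909 CPM in DMSO on average, and most OL9-119 libraries had no count. Its fitted log2 difference of -5.55 ± 0.70 (edgeR adjusted p = 4.74e-08) rests on counts near 0 and gives no size.

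Nuclear copies of mitochondrial DNA can take reads from the MT-ND genes. Of 215 annotated MTND pseudogenes 39 had any count, and their 35309 counts equalled 0.530% of the members' 6665919. The share was highest for MT-ND2 (1.504%), mostly through MTND2P28 on chromosome 1 with 33.6 CPM. Of 8 tested pseudogenes 4 were lower after the combination by edgeR, where 11.7% of tested genes were lower. After OL9-119 2 of 8 were lower by edgeR and 3 passed by DESeq2, where 5% of tested genes were lower by edgeR. The 2 were MTND5P11 (log2 -1.56 ± 0.36) and MTND6P4 (-1.35 ± 0.37), adjacent on chromosome 5. They averaged only 4.24 and 3.58 CPM in DMSO. These 2 were named after their values were seen, and they copy the members that were lowered most. Whether their reads came from the mitochondrial copies was not tested.

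By Pearson's r of log2 CPM with clone means removed, over 60 libraries and 12316 candidate genes outside the mitochondrial genome, the pattern of MT-ND6 was most like OAZ2 (r = 0.92), EIF4E2 (0.90), DNAJB1 (0.90), HSPA1B (0.89) and ATP5MC3 (0.89). HSPA1B has a near-identical copy, HSPA1A, so its counts are uncertain. For the mean of the 6 plus-strand members the closest were FKBP1A (0.90), HSPA8 (0.86), CDC42 (0.84), RBM12 (0.84) and TIPARP (0.84). HSPA8, a constitutive chaperone, averaged 574 CPM after OL9-119 and 1176 CPM in DMSO. The 2 lists share no gene, and the libraries share treatment and scaling.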

How the data were processed

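RNA was taken with Trizol, enriched for poly(A), and sequenced from directional libraries, per the labels' protocols. The deposited table holds whole-number counts for every Ensembl gene in each library, not normalised. Picard 2.26.6, STAR 2.7.8, FastQC 0.11.9 and the build hg38 are listed in the submitters' processing notes. How reads were counted, by which annotation and strand, is not given. From these counts, 18985 genes passing filterByExpr (minimum count 10) were fitted with edgeR 4.0.16 (R 4.3.3; TMM; quasi-likelihood test on 15 group means; Benjamini-Hochberg adjustment over all tested genes; threshold 0.05). A treatment difference is the mean of its 3 within-clone differences. DESeq2 1.42.0 was an alternative. Ratios used counts plus 0.5 and 2-sided exact permutation within clones. Of the table's rows, 58275 were in GENCODE 29, which gave coordinates and sequences. The code was tested on simulated data. Depth of 4623685 to 20932497 counts per library limits precision through counting error only; p-values measure the spread between labelled biological replicates. Replicates differed by more than sampling noise, so none was merged. Members and gene lists were chosen with earlier results of these data known. Members are always named; of each nuclear list up to 3 passing genes per direction with the smallest p are named, and the 5 genes most like each pattern.

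Replicate numbers were not used to pair libraries in this model; a model with them as a block was an alternative.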

Additional observations from a re-analysis of the deposited data

Results flagged for a closer look

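MT-ND2 had 1333 CPM in replicate 4 of the G6 combination group, against 1656 to 1716 CPM in the other 3 replicates. This library stood apart from its group: its gap to the nearest other was 0.843 of the group's range, above Dixon's critical value for 4 samples. It was 1 of 105 groups of 4 tested (7 genes in 15 groups), where chance alone marks about 1 in 20, and it was not a low-detection library.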

How the results depend on the processing

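Of 980 recomputed member differences (91 differences under up to 11 alternatives), 0 changed direction among those called, 20 lost and 25 gained a call, and 935 kept their side of the threshold. MT-ND1 gained a call for OL9-119 minus DMSO with the replicate block (log2 -0.20, edgeR adjusted p = 0.0191). The gains came mostly without a filter on low counts (12) and with the replicate block (8); using the library name prefix as a term changed none. MT-ND3, MT-ND4L, MT-ND4, MT-ND5 and MT-ND6 kept their calls for OL9-119 minus DMSO under all 11. Members called by topotecan minus DMSO numbered 1 without the filter, 3 with the replicate block (MT-ND2 at log2 -0.20, MT-ND3 at -0.17 and MT-ND4L at -0.19, edgeR adjusted p = 0.0238, 0.0473 and 0.0135) and 0 to 1 with a replicate left out; by F7 minus G6 they numbered 4 without the filter, 2 without the low-detection libraries and 1 to 2 with a replicate left out; by C6 minus F7, 2 to 5 with a replicate left out. Counts of all genes called depended more on the setting. For OL9-119 minus DMSO there were 1798, 2600 with the block, 2820 without the low-detection libraries and 858 to 1443 with a replicate left out; topotecan minus DMSO gave 2913, and 1872 to 2841; combination minus DMSO 4033, and 2677 to 3488; combination minus OL9-119 2415, and 1499 to 2138; F7 minus G6 3241, and 1498 to 4325. Combination minus topotecan gave 1287, 2455 with the block and 513 to 1218 with a replicate left out. DMSO minus untreated gave 3, 13 by DESeq2, 13 without the filter, 11 with the block, 0 without the low-detection libraries and 0 to 8 with a replicate left out. The interaction gave 6, 14 by DESeq2, 40 without the filter, 14 with the block and 1 to 3 with a replicate left out. OL9-119 minus DMSO gave 617 in C6 (1243 with the block, 212 to 549 with a replicate left out), 200 in F7 (340 with the block, 652 without the low-detection libraries, 63 to 137) and 354 in G6 (196 without the filter, 635 with the block, 93 to 265). Clone dependence gave 5 for OL9-119 (8 by DESeq2, 9 without the filter, 0 to 4) and 26 for topotecan (45 by DESeq2, 52 without the low-detection libraries, 11 to 22). The MT-ND6 to MT-ND5 difference for OL9-119 passed with the replicate block (0.37, exact sign-flip permutation p = 0.0293) and without the low-detection libraries (0.56, p = 0.00667, exact permutation); with a replicate left out it was 0.27 to 0.49. For DMSO minus untreated the MT-ND5 to MT-ND1 difference was -0.11 to -0.040 with a replicate left out, and the slope was -0.0136 to -0.00603. Without replicate 4 the unadjusted p was under 0.05 for the ratio (exact permutation p = 0.0128) and for the slope (exact permutation p = 0.00125). With the replicate block it was under 0.05 for the slope (-0.00863, exact sign-flip permutation p = 0.0356). The cause of these shifts was not tested. Whether replicate numbers pair the libraries is not settled by the labels or the data. Libraries with the same clone and number were correlated between treatments in 72 comparisons, which reuse the 60 libraries. These correlations ran from -0.153 to 0.443, and 25 of 72 were over 0.1. In 40 of 72 comparisons a library correlated best with its own number, with 4 numbers per group. This is a hint of pairing that the main model does not use, and calls that change with the block depend on it. The block could not be fitted between clones. Depth does not limit the members, whose lowest count was 535, but it limits MT-TE and most pseudogenes.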
